A study of Rattus norvegicus with 18 samples.

Results

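Ribosome biogenesis genes encode the proteins that transcribe, cut, modify and fold ribosomal RNA and load ribosomal proteins onto it. They are described here in rat jejunum after oral dosing with 3 inhibitors of the cyclin-dependent kinases CDK4 and CDK6. The list of 40 such genes was set by symbol, with earlier results of these data known. A gene counted as measured where at least 1 probe set of the array named that gene and no other, and its brightest probe set stood for it. By this rule 39 of the 40 genes were measured, among 14217 genes in all. The one not measured was Npm1, whose 3 probe sets each name another symbol as well, so no value is given for it.

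Mucosal scrapings of the jejunum of male Sprague Dawley rats, 6 to 8 weeks old, were profiled on 18 expression arrays, 3 for each of 6 groups. One group received vehicle (0.5% methyl cellulose). Abemaciclib was given at 36 and 120 mg/kg/day, palbociclib at 30 and 100 mg/kg/day, and ribociclib at 300 mg/kg/day alone, all by oral gavage with 1 dose per day. The study's title places intestinal toxicity of these inhibitors apart from their primary pharmacology, and the comparisons ask how each compound and dose differed from vehicle and from the others. The labels do not say which animals gave which arrays, so a p-value here measures the spread between these arrays, which may be partly technical. The duration was 4 or 15 days, and which of these applies to a given array is not stated in the labels. Abemaciclib and ribociclib were given in another carrier than the vehicle group received (0.5% hydroxypropyl methylcellulose and 0.25% tween 80 in a citrate buffer), so for these compounds the carrier and the drug cannot be told apart. The title of abemaciclib 120 mg/kg/day array B gives the dose as 100. Counts of called genes without that array are given where this group is compared with another group, and for the comparison of dose steps. They are not given for the F test, the role groups, arrays that do not overlap, cell markers or further pathway genes.

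Ribosome production begins in the nucleolus, where RNA polymerase I copies the ribosomal DNA into one long precursor RNA. Small nucleolar ribonucleoproteins (snoRNPs) methylate and pseudouridylate that RNA, the small subunit processome cuts out the precursor of the small (40S) subunit, and a separate series of factors builds the large (60S) subunit. Demand for ribosomes is high in dividing cells, and in the small intestine these lie in the crypts, below a villus surface of non-dividing enterocytes. The transcription factor MYC is known to drive many of these genes through the E-box sequence.

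Promoter sequence was available from RefSeq (build GRCr8) for 37 of the 40 genes, as a window from 250 bases before to 50 bases after one annotated start of each gene. For 23 of the 37 genes this is the outermost start of the annotated gene. For the other 14 it lies 27 to 5804 bases inside the gene. Bop1, Wdr43 and Rrs1 had no entry. The E-box CACGTG, which reads the same on both strands, lay in the window of 12 of these 37 genes (32.4%). It lay in 6.42% of all 33469 windows and in 8.62% of the 13242 windows of genes on the array. In 8 of the 12 an E-box lay wholly before the window's start, and in Mybbp1a, Pes1, Rrp1 and Dkc1, 4 of these 8, that start is also the outermost one. The stretches of these 4 are shown because the E-box marked lies outside the annotated gene. Each is written 5′ to 3′ on the gene's strand, with up to 40 bases before the E-box and at most 20 after it, and the capitals mark the E-box.
Mybbp1a, chr10:57555262-57555327, plus strand: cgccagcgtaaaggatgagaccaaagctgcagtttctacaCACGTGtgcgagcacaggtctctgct
Pes1, chr14:83074256-83074321, plus strand: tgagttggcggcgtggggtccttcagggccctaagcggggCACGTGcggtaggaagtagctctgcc
Rrp1, chr20:10260524-10260579, plus strand: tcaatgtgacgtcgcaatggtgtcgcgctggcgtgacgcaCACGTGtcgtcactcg
Dkc1, chrX:157751427-157751492, plus strand: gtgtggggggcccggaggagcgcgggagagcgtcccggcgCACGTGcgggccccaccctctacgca

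The first base of the E-box stood 13 bases before the window's start in Ddx18, 16 in Rrp1, 25 in both Gnl3 and Utp4, 50 in Pes1, 127 in Utp20, 156 in Mybbp1a and 184 in Dkc1. The windows of Ddx18, Gnl3, Utp4 and Utp20 start 66, 247, 5804 and 175 bases inside the annotated gene. Mybbp1a has another E-box that spans the start. In Fbl, Noc3l, Nop2 and Tsr1 the E-box lay after the window's start. Other words of 8 bases were searched on both strands. The word TCTCGCGA was in 5 of the 37 windows (13.5%) against 0.855% of all windows and 1.59% of those of genes on the array. TTTCCCGC, a form of the E2F site, was in 3 (8.11%) against 0.974% and 1.76%. GCGCATGC, the core of the NRF1 site, was in 3 (8.11%) against 2.47% and 4.18%. TTTGGCGC, another E2F form, was in 0 of 37 against 0.493% and 0.763%. A match is a description of the letters in the window and was not tested as a binding site.

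Each array's values were log2 signals, and a gene was called where its limma p-value, adjusted over all 14217 genes by the Benjamini-Hochberg method, was under 0.05. "Rose" and "fell" are used only of called genes. Array medians over all probe sets lay between 5.40 and 5.51, and correlations between arrays between 0.918 and 0.993. RNA quality was read from the beta-actin control probe sets, as the 3′ signal minus the 5′ signal (log2), which grows as RNA is degraded. This value was 0.57 to 0.79 on the vehicle arrays. It was 0.86 to 1.05 at abemaciclib 120 mg/kg/day and 0.40 to 0.90 in the other 4 groups, where ribociclib array C (0.90) lay within the range of the high dose. The enterocyte markers of the scrapings were present, with vehicle means of 12.29 (Alpi) to 14.18 (Fabp1).

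At abemaciclib 120 mg/kg/day nearly the whole set had a higher signal. Against vehicle, 35 of the 39 genes rose and 0 fell (limma), where 9.60% of all genes rose. The median log2 difference of the 39 genes was 1.69, a 3.22-fold higher signal, and that of all genes was -0.02. For 36 of the 39 genes all 3 treated arrays lay above all 3 vehicle arrays, which held for 18.6% of all genes. The differences ran from 0.03 (Noc3l) to 2.97 (Nhp2). Before adjustment 37 of the 39 genes had a limma p under 0.05, as had 4227 of all 14217 genes. In this bulk tissue, more cells of a type that carries these RNAs and more RNA per cell cannot be told apart.

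**Figure D1:**
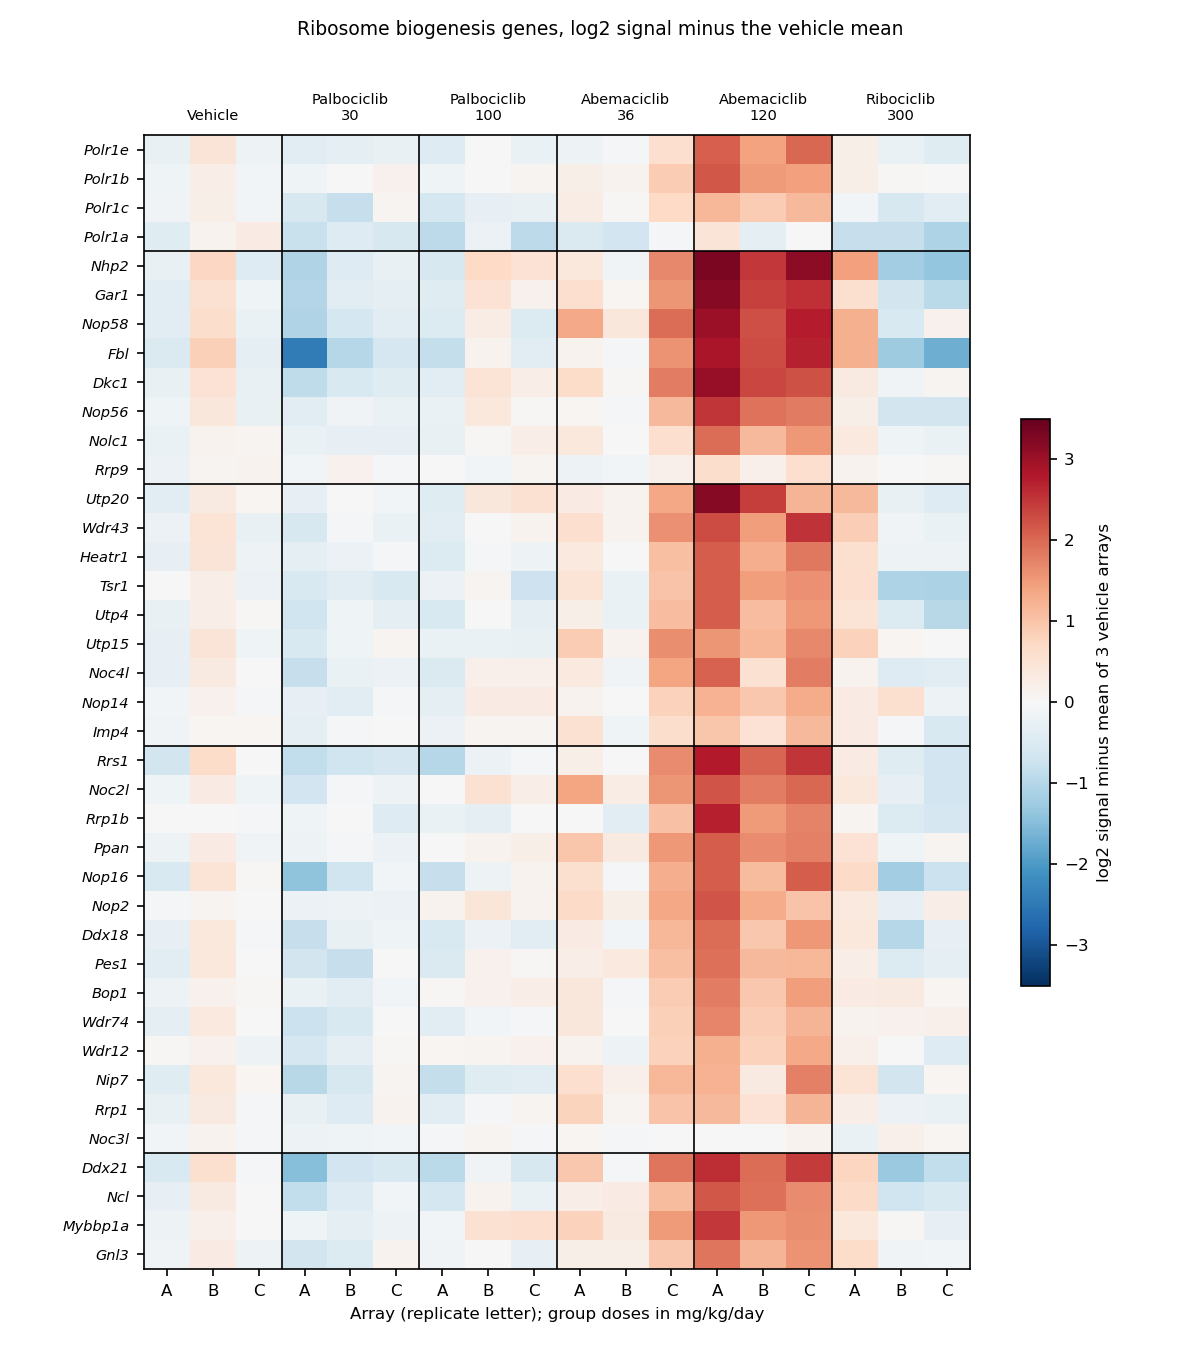
Heat map of the 39 genes (rows, grouped from the top as RNA polymerase I, snoRNP, small subunit, large subunit and other nucleolar proteins) on the 18 arrays (columns), coloured by log2 signal minus the mean of the 3 vehicle arrays. The 3 arrays of abemaciclib 120 mg/kg/day are red in nearly every row, with gene medians of 2.11, 1.28 and 1.64, and array C of abemaciclib 36 mg/kg/day (median 1.12) is the next highest.

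**Figure D2:**
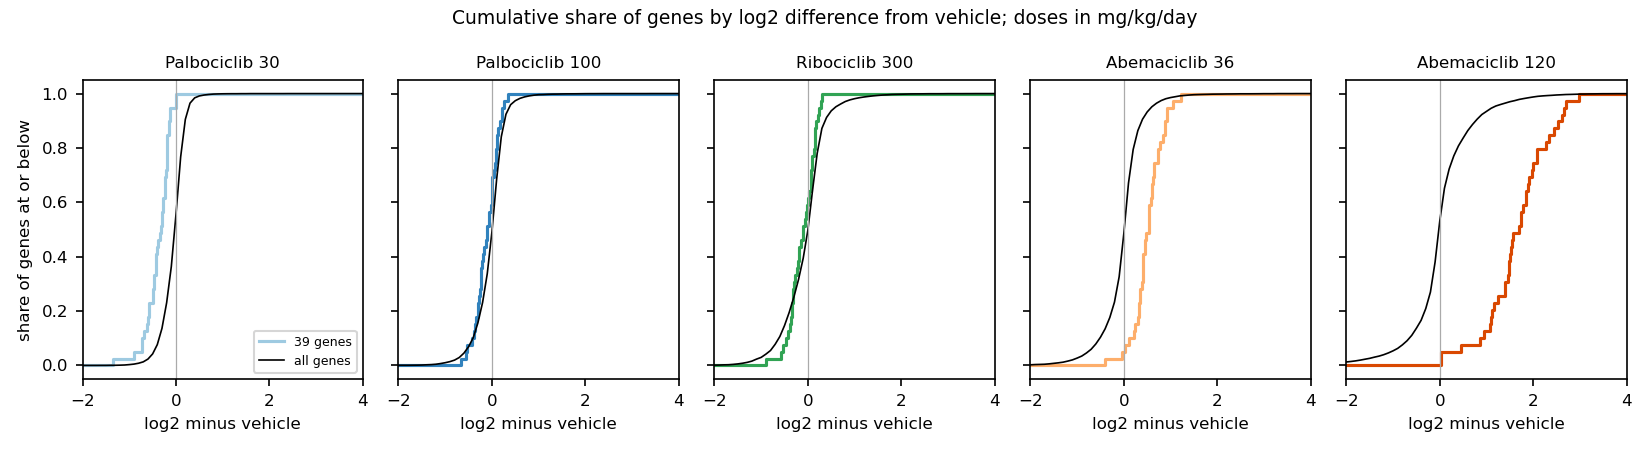
Cumulative share of genes (vertical axis) at or below each log2 difference from vehicle (horizontal axis), for the 39 ribosome biogenesis genes in colour and all 14217 genes in black, one panel per treated group. The coloured curve lies far to the right at abemaciclib 120 mg/kg/day (median 1.69 against -0.02), somewhat to the right at 36 mg/kg/day (0.53 against 0.01), near the black curve for palbociclib 100 and ribociclib, and to its left for palbociclib 30 (-0.31 against -0.03).

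RNA polymerase I makes the ribosomal RNA precursor, and 3 of its 4 measured subunits rose. Polr1e, a subunit that helps the enzyme start, read 4.53, 5.26 and 4.61 (log2 signal) on the vehicle arrays and 6.88, 6.21 and 6.82 at abemaciclib 120 mg/kg/day. On the other arrays it read 4.42, 4.49 and 4.55 at palbociclib 30, 4.36, 4.82 and 4.58 at palbociclib 100, 4.61, 4.76 and 5.39 at abemaciclib 36 and 5.01, 4.57 and 4.37 with ribociclib. All 3 arrays of the high abemaciclib dose lay above the 15 others. The log2 difference from vehicle was 1.84 (SE 0.24, 3.57-fold, limma adjusted p = 0.000147). Polr1b, which forms the catalytic core with Polr1a, read 4.67, 5.06 and 4.74 in vehicle and 6.99, 6.30 and 6.25 at the high dose, again with no overlap. It read 4.66, 4.83 and 4.98 and 4.66, 4.84 and 4.92 at palbociclib 30 and 100, 5.03, 4.95 and 5.71 at abemaciclib 36 and 5.03, 4.87 and 4.80 with ribociclib. Its difference from vehicle was 1.69 (SE 0.21, 3.22-fold, limma adjusted p = 9.16e-05). Polr1c, a subunit shared with RNA polymerase III, rose by 1.07 (SE 0.24).

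Polr1a, the largest subunit of the enzyme, was not called. It read 5.24, 5.80 and 5.95 in vehicle and 6.12, 5.32 and 5.66 at abemaciclib 120, and these overlapped. The difference was 0.04 with a 95% interval of -0.48 to 0.55, under a 2-fold change either way. Polr1a read 4.86, 4.85 and 4.59 with ribociclib, 4.88, 5.21 and 5.10 at palbociclib 30, 4.76, 5.47 and 4.76 at palbociclib 100 and 5.17, 4.99 and 5.60 at abemaciclib 36. All 3 ribociclib arrays and all 3 palbociclib 30 arrays lay below all vehicle arrays. The difference from vehicle was -0.90 with ribociclib (SE 0.24, limma adjusted p = 0.0504), -0.60 and -0.67 at the palbociclib doses and -0.41 at abemaciclib 36, and none was called. It was called lower with ribociclib without ribociclib array A (limma adjusted p = 0.0441) and without vehicle array A (0.042), so the call changes with single arrays.

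The snoRNP proteins had the highest median difference of the 5 role groups, 2.57, and 7 of 8 rose. Box H/ACA snoRNPs guide pseudouridylation, and 3 of their 4 core proteins are on the list. Nhp2 read 7.19, 8.18 and 6.99 in vehicle and 10.75, 9.93 and 10.59 at abemaciclib 120. It read 7.81, 7.32 and 9.13 at abemaciclib 36, 6.39, 7.01 and 7.19 at palbociclib 30, 6.89, 8.16 and 7.95 at palbociclib 100 and 8.90, 6.23 and 6.10 with ribociclib. The high-dose arrays stood above the 15 others, of which abemaciclib 36 array C and ribociclib array A were the nearest. The difference from vehicle was 2.97 (SE 0.63, 7.86-fold, limma adjusted p = 0.0038). Gar1 read 5.16, 6.08 and 5.39 in vehicle and 8.74, 7.93 and 8.10 at the high dose, 2.71 apart (SE 0.42, 6.54-fold, limma adjusted p = 0.00042). Its other arrays read 6.12, 5.61 and 7.10 at abemaciclib 36, 4.53, 5.14 and 5.21 at palbociclib 30, 5.11, 6.04 and 5.69 at palbociclib 100 and 6.11, 4.89 and 4.61 with ribociclib, all below the high dose. Dkc1, the pseudouridine synthase itself, rose by 2.53 (SE 0.37).

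Box C/D snoRNPs guide methylation of the ribose. Their methyltransferase Fbl rose by 2.62 (SE 0.66), from 6.88, 8.22 and 7.09 to 10.26, 9.69 and 10.09. The scaffold proteins Nop58 and Nop56 rose by 2.66 (SE 0.44) and 2.08 (SE 0.32). Nolc1, which chaperones snoRNPs, rose by 1.53 (SE 0.23). Rrp9, a protein of the U3 snoRNP that takes part in the first cuts of the precursor, read 6.75, 7.03 and 7.06 in vehicle and 7.56, 7.12 and 7.53 at the high dose. These did not overlap, but the difference of 0.46 was not called (limma adjusted p = 0.077). Without high-dose array B it was called (limma adjusted p = 0.0312). Fbl lost its call without high-dose array A (limma adjusted p = 0.0526), vehicle array A (0.0519) or vehicle array C (0.0517), with a difference of 2.36 or more in each.

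All 9 proteins of the small subunit processome and of 40S maturation rose, with a median difference of 1.57. Utp20, a large repeat protein of the processome, read 4.83, 5.52 and 5.26 in vehicle and 8.39, 7.62 and 6.39 at abemaciclib 120. It read 5.48, 5.33 and 6.55 at abemaciclib 36, 4.92, 5.20 and 5.12 at palbociclib 30, 4.78, 5.59 and 5.73 at palbociclib 100 and 6.33, 4.93 and 4.75 with ribociclib. High-dose array C lay below abemaciclib 36 array C in this gene, and all other arrays lay below the high dose. The difference from vehicle was 2.26 (SE 0.48, 4.80-fold, limma adjusted p = 0.00363). Wdr43, part of the complex that enters the processome first, read 5.76, 6.44 and 5.71 in vehicle and 8.26, 7.43 and 8.50 at the high dose. The difference was 2.09 (SE 0.38, 4.26-fold, limma adjusted p = 0.0012). Wdr43 read 6.55, 6.09 and 7.57 at abemaciclib 36, with array C above the lowest high-dose array, and 6.83, 5.86 and 5.74 with ribociclib. It read 5.40, 5.93 and 5.75 and 5.61, 5.99 and 6.10 at the palbociclib doses, overlapping the vehicle arrays.

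Heatr1, Utp4 and Utp15, of the same early complex, rose by 1.75 (SE 0.28), 1.57 (SE 0.37) and 1.47 (SE 0.32). Nop14 and Noc4l, which bind each other in the processome, rose by 1.16 (SE 0.22) and 1.47 (SE 0.39). Tsr1, which acts late on the 40S particle in the cytoplasm, rose by 1.73 (SE 0.39), and Imp4, which pairs U3 with the precursor, by 0.86 (SE 0.24). Without high-dose array A the limma adjusted p was 0.0865 for Imp4, 0.0914 for Noc4l and 0.0505 for Utp4. Imp4 and Noc4l also lost the call without high-dose array C (0.0877 and 0.0584), vehicle array A (0.0803 and 0.0613) or vehicle array C (0.0574 and 0.0504).

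Of 14 factors for the large subunit, 12 rose, with a median difference of 1.44. Rrs1, which brings the 5S RNA particle into the precursor, read 4.93, 6.22 and 5.56 in vehicle and 8.35, 7.61 and 8.07 at abemaciclib 120. It read 5.78, 5.55 and 7.23 at abemaciclib 36, 4.71, 4.86 and 4.97 at palbociclib 30, 4.57, 5.36 and 5.49 at palbociclib 100 and 5.86, 5.14 and 4.89 with ribociclib. The high-dose arrays lay above the 15 others. The difference from vehicle was 2.44 (SE 0.41, 5.44-fold, limma adjusted p = 0.00073). Noc2l, a factor for export of the particle that also binds p53 and histones, read 5.84, 6.28 and 5.85 in vehicle and 8.18, 7.78 and 8.01 at the high dose. The high dose was 3.99-fold higher (SE 0.31 on the log2 scale, limma adjusted p = 0.000482). Its arrays at abemaciclib 36 were split, at 7.36, 6.26 and 7.53, with A and C near the high dose and B among the vehicle values. It read 5.33, 5.95 and 5.82 at palbociclib 30, 6.01, 6.52 and 6.23 at palbociclib 100 and 6.35, 5.71 and 5.31 with ribociclib.

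Pes1, Bop1 and Wdr12 form the PeBoW complex, which is needed to process the RNAs of the large subunit. They rose by 1.40 (SE 0.31), 1.40 (SE 0.24) and 1.12 (SE 0.25). Ppan, a Brix-domain protein of large subunit assembly, rose by 1.86 (SE 0.26), and the related pair Rrp1b and Rrp1 by 1.98 (SE 0.33) and 0.94 (SE 0.27). Nop2, an RNA methyltransferase, rose by 1.50 (SE 0.30), Nop16 by 1.79 (SE 0.48), the RNA helicase Ddx18 by 1.48 (SE 0.36) and Wdr74 by 1.25 (SE 0.27). Rrp1 and Nop16 were not called without high-dose array A (limma adjusted p = 0.101 and 0.0808), high-dose array C (0.0872 and 0.0627), vehicle array A (0.097 and 0.08) or vehicle array C (0.0823 and 0.0525). Ddx18 was not called without high-dose array A (0.0596).

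Nip7 and Noc3l were the 2 large subunit factors that were not called. Nip7, an RNA-binding factor, read 6.87, 7.66 and 7.35 in vehicle and 8.50, 7.62 and 9.06 at the high dose, where array B lay just under the highest vehicle array. The difference was 1.10 (SE 0.39, limma adjusted p = 0.0606), and it was called without that array B (adjusted p = 0.0152). Noc3l, a partner of Noc2l, read 3.95, 4.16 and 3.99 in vehicle and 4.02, 4.01 and 4.17 at the high dose, 0.03 apart. Its mean signal over all arrays, 4.02, was at the 9.69th percentile of the genes.

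The 4 abundant nucleolar proteins and regulators all rose, with a median of 1.90. Ddx21, an RNA helicase that couples RNA polymerase I to processing, read 6.54, 7.62 and 7.02 in vehicle and 9.65, 9.02 and 9.50 at abemaciclib 120. It read 7.99, 7.01 and 8.93 at abemaciclib 36, 5.58, 6.38 and 6.54 at palbociclib 30, 6.12, 6.93 and 6.50 at palbociclib 100 and 7.80, 5.75 and 6.21 with ribociclib. The high-dose arrays lay above the 15 others, abemaciclib 36 array C by the least. The difference from vehicle was 2.33 (SE 0.51, 5.03-fold, limma adjusted p = 0.00451). Ncl (nucleolin), a histone chaperone and RNA-binding protein of the nucleolus, read 9.05, 9.65 and 9.32 in vehicle and 11.51, 11.26 and 10.99 at the high dose. The difference was 1.91 (SE 0.34, 3.77-fold, limma adjusted p = 0.00115). It read 9.57, 9.64 and 10.46 at abemaciclib 36, 8.47, 8.88 and 9.25 at palbociclib 30, 8.73, 9.45 and 9.12 at palbociclib 100 and 10.02, 8.64 and 8.81 with ribociclib, all below the high dose. Mybbp1a, a nucleolar regulator of transcription, rose by 1.88 (SE 0.30), and Gnl3 (nucleostemin), a GTPase of dividing and stem cells, by 1.55 (SE 0.28).

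**Figure D3:**
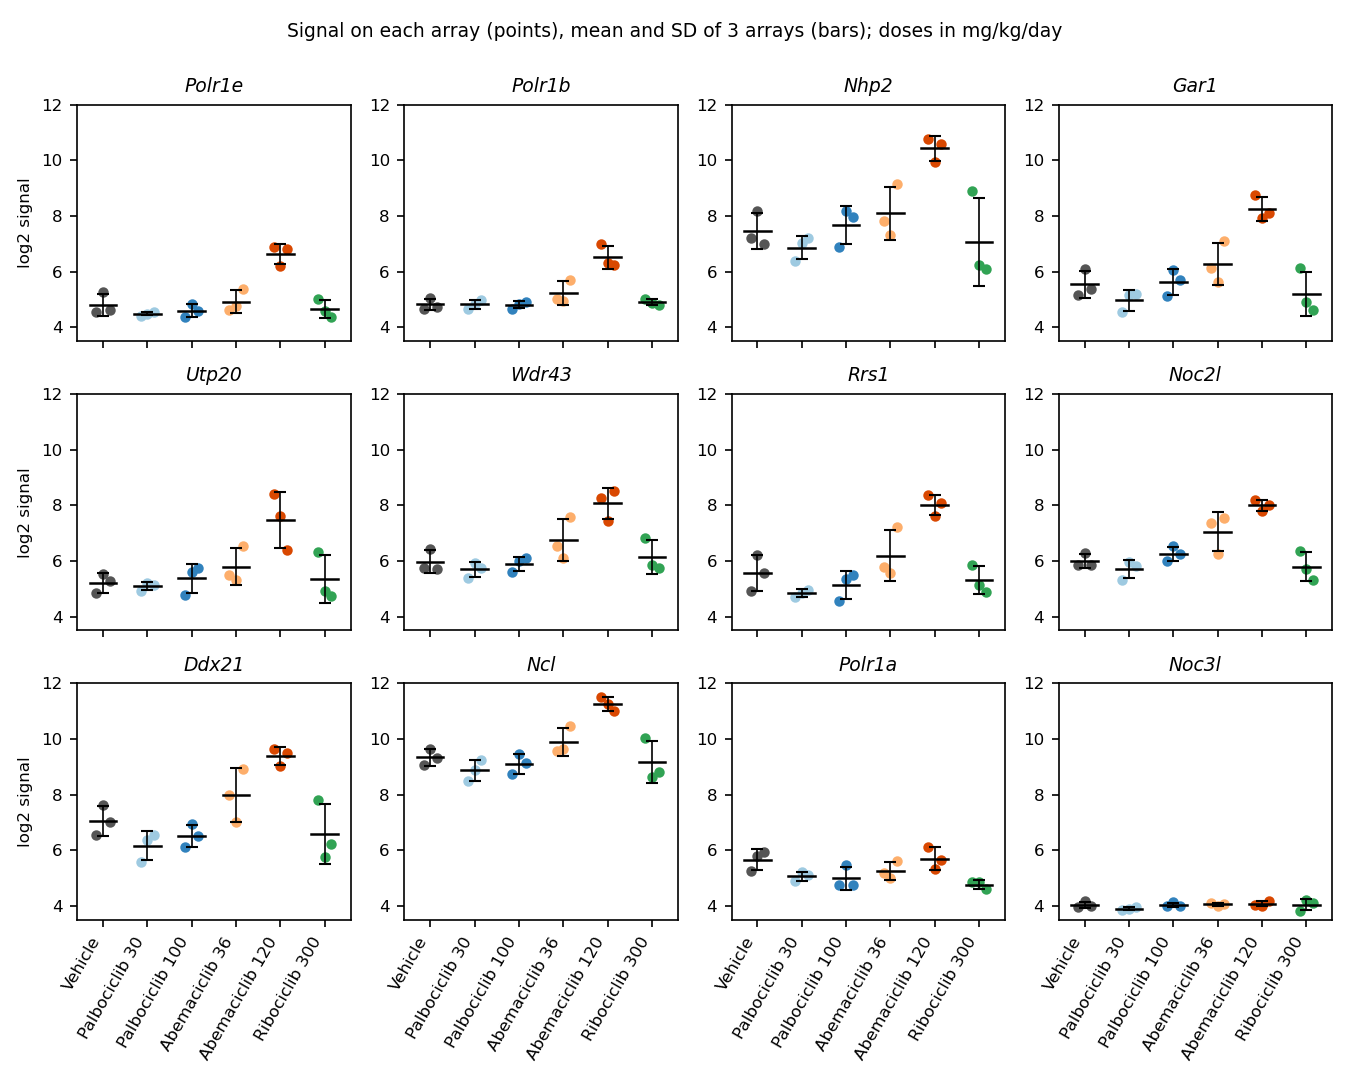
Log2 signal (vertical axis) of 12 genes on every array (points; A, B, C from left to right), by group, with the mean (long bar) and SD (whiskers) of 3 arrays. The first 10 panels show the 2 genes of each role group with the largest difference, whose means stand highest at abemaciclib 120 mg/kg/day; for Polr1a and Noc3l, in the last panels, the arrays of that group overlap the vehicle arrays.

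The promoter windows can be set beside these differences. Of the 12 genes with an E-box 11 rose, with a median of 1.56. Of the 24 measured genes in the promoter table without one, 21 rose, with a median of 1.72.

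RNA quality moved with the high abemaciclib dose, as given above. With the actin difference as a covariate in the limma fit, 29 of the 39 genes were called, all higher, and the median difference was 1.54. Pes1, Ddx18, Fbl, Noc4l, Nop16 and Rrp1 were those that lost the call. The count was 28 to 37 when single arrays were left out, lowest without high-dose array A and highest, with Nip7 and Rrp9 called as well, without high-dose array B.

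For 8 genes the array carried further probe sets, which agreed in sign but not in size. At abemaciclib 120 against vehicle the brightest probe set of Nolc1 differed by 1.53 and its 3 others by 2.62, 0.42 and 0.06. For Rrp1b the values were 1.98 for the brightest and 0.30 and 1.00 for the others. They were 2.08 and 0.58 for Nop56, 2.33 and 1.12 for Ddx21, 1.47 and 0.81 for Utp15, and 2.09 and 1.51 for Wdr43. For Ddx18 (1.48 and 1.58) and Imp4 (0.86 and 1.01) the brightest gave the smaller value. With the mean of the probe sets in place of the brightest, the count called was again 35.

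Abemaciclib at 36 mg/kg/day gave smaller differences in the same direction. By limma 0 of 39 genes were called, where 2.08% of all genes were. Before adjustment 8 had a limma p under 0.05, all higher, as had 1960 of all 14217 genes, 698 of them higher. The median difference from vehicle was 0.53, against 0.01 over all genes. Of the 39 differences 37 were above 0, where 51.5% of all genes were above 0. The lowest adjusted p was 0.0764, for Ppan, which read 6.68, 7.15 and 6.73 in vehicle and 7.82, 7.17 and 8.36 at abemaciclib 36 (0.93, SE 0.26). These did not overlap, but array B lay only just above the highest vehicle array. All 3 arrays lay above all 3 vehicle arrays for 3 of the 39 genes and for 1130 of all 14217 genes. Nop58 differed by 1.22 (SE 0.44, limma adjusted p = 0.184) and Noc2l by 1.05 (SE 0.31, limma adjusted p = 0.102). Upper 95% bounds were under a log2 difference of 1 for 13 of the 39 genes, so for the other 26 a 2-fold rise lay within the interval.

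The 3 arrays at this dose stood apart from each other. Medians of the 39 genes against the vehicle mean were 0.34 for array A, -0.01 for B and 1.12 for C. Array C was the highest of its group in 38 genes and above every vehicle array in 37, and array B the lowest in 34. The median difference from vehicle was 0.18 without array C. Without array B it was 0.72, and Noc2l, Ppan and Utp15 were then called higher (limma adjusted p = 0.0117, 0.0114 and 0.0343).

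The doses of abemaciclib were compared directly. The fit did not pair arrays by replicate letter, although deviations from the group means correlated between arrays of one letter at these doses (0.13, 0.59 and 0.30). Of the 39 genes, 18 were higher at 120 than at 36 mg/kg/day and 0 lower (limma), where 4.82% of all genes were called higher and 7.59% in either direction. The median difference was 1.10 (2.14-fold). Before adjustment 34 of the 39 genes had a limma p under 0.05, as had 2981 of all 14217 genes. By role, 5 of 8 snoRNP proteins, 2 of 4 polymerase subunits, 2 of 4 abundant nucleolar proteins, 5 of 14 large subunit factors and 4 of 9 small subunit proteins were called. Polr1e differed by 1.71 (SE 0.24, limma adjusted p = 0.000826), Polr1b by 1.28 (SE 0.21, adjusted p = 0.00169) and Nhp2 by 2.34 (SE 0.63, adjusted p = 0.0315). Ddx21 (1.41, limma adjusted p = 0.109) and Noc2l (0.94, adjusted p = 0.0812) were not called. The count moved with single arrays. It was 31 without abemaciclib 36 array C, 6 without array A or array B of that group, and 5 without abemaciclib 120 array A. Without abemaciclib 120 array B it was 22, where Utp20 lost its call (limma adjusted p = 0.0875) and Mybbp1a, Noc4l, Rrp9, Utp4 and Wdr74 gained one. With the replicate letter as a block it was 17, where Utp20 and Wdr43 lost their call (limma adjusted p = 0.0587 and 0.0535) and Tsr1 gained one (0.0495). With the actin difference as a covariate it was 5, and in a fit of these 6 arrays alone it was 1, while the median difference stayed between 0.86 and 1.36.

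**Figure D4:**
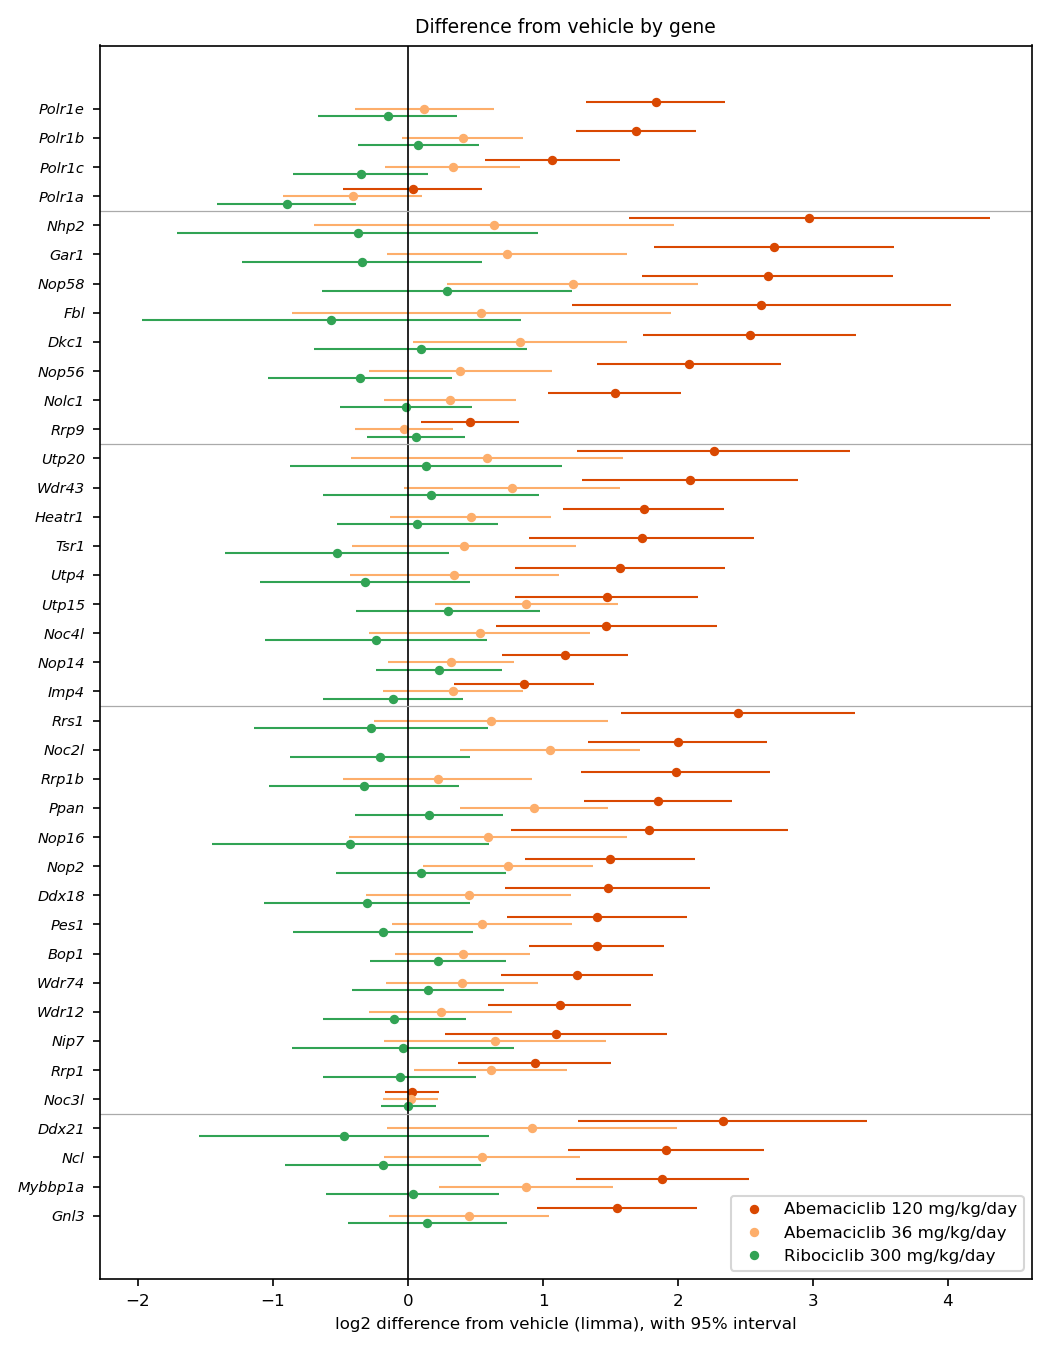
Log2 difference from vehicle (points) with its 95% interval (lines) for each of the 39 genes (rows, in the role order of the text), at abemaciclib 120 and 36 mg/kg/day and ribociclib 300 mg/kg/day. At abemaciclib 120 the intervals of 37 genes lie above 0, and the exceptions are Polr1a and Noc3l; the ribociclib interval lies below 0 for Polr1a.

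With ribociclib at 300 mg/kg/day the differences lay on both sides of 0. By limma 0 of 39 genes were called, where 3.73% of all genes were. Before adjustment 1 gene, Polr1a, had a limma p under 0.05, as had 2869 of all 14217 genes. The median difference from vehicle was -0.10, against 0.00 over all genes. There were 16 differences above 0 and 23 below, where 50.2% of all genes were above 0. The upper 95% bound was under a log2 difference of 1 for 37 of the 39 genes, and the highest bound was 1.22 (Nop58). Array A stood above the others, with a median of 0.34 against -0.29 and -0.31, and was the highest of the group in 35 genes. Fbl, for example, read 8.65, 6.14 and 5.70. Without array A the median was -0.31, and Polr1a and Tsr1 were called lower (limma adjusted p = 0.0441 and 0.0433). Tsr1 read 8.33, 6.66 and 6.63 with ribociclib and 7.71, 7.96 and 7.53 in vehicle.

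With palbociclib none of the 39 genes passed the limma threshold at either dose. At 100 mg/kg/day 0 of 39 were called by limma, as were 0% of all genes. Before adjustment 1 (Polr1a) had a limma p under 0.05, as had 1023 of all 14217 genes. The median difference from vehicle was -0.11, with 12 above 0, where 50.8% of all genes were above 0. The upper 95% bound was under 1 for 36 of 39 genes, with the highest at 1.55 (Nhp2). At 30 mg/kg/day 0 of 39 were called by limma, as were 0% of all genes. Before adjustment 1, again Polr1a, had a limma p under 0.05, as had 357 of all genes. All 39 differences from vehicle were below 0 at this dose, with a median of -0.31, where 44.5% of all genes were above 0. The largest was that of Fbl, at 4.94, 6.41 and 6.80 against 6.88, 8.22 and 7.09 in vehicle (-1.35, SE 0.66, limma adjusted p = 0.998). For 9 of the 39 genes all 3 arrays lay below all 3 vehicle arrays, which held for 908 of all 14217 genes. The upper 95% bound was under 1 for all 39. The vehicle mean that these differences share includes vehicle array B, which was above that mean in 39 of 39 genes, and without it the median was -0.21. Between the doses 0 of 39 genes were called (0% of all genes, limma), and the median was 0.25 higher at 100 mg/kg/day. Unadjusted, 0 of the 39 had a limma p under 0.05, against 619 of all 14217 genes.

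The groups were also set against each other at the doses used, which differ between compounds, so these comparisons do not hold at matched doses. Abemaciclib 120 and ribociclib 300 mg/kg/day differed in 37 of 39 genes, all higher with abemaciclib (limma), where 17.2% of all genes were called higher and 27.2% in either direction. The median difference was 1.71, and the 2 genes not called were Rrp9 and Noc3l. Rrp9 was called without abemaciclib 120 array B (limma adjusted p = 0.0371), which gave 38, and with no intensity trend (0.0492). Polr1a was called here (0.93, SE 0.24, limma adjusted p = 0.0106). With the actin difference as a covariate the count was 24. Against palbociclib 100 mg/kg/day, 36 of 39 were higher at abemaciclib 120 (limma), where 11.4% of all genes were called higher and 18.3% in either direction, with a median of 1.74. Polr1a, Rrp9 and Noc3l were not called, and Polr1a was without palbociclib 100 array B (limma adjusted p = 0.0204) or abemaciclib 120 array B (0.0268), and with dim genes left out (0.0468). Without abemaciclib 120 array B Rrp9 was called too (0.0307), which gave 38. With the actin difference as a covariate the count was 24. Between ribociclib 300 and palbociclib 100 mg/kg/day 0 of 39 were called (0.823% of all genes, limma), and the median was 0.00. Unadjusted, 0 of the 39 had a limma p under 0.05, against 2100 of all 14217 genes. The abemaciclib comparisons share the abemaciclib arrays and those with vehicle share the vehicle arrays, so their counts are not independent of each other.

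The step between doses was compared between compounds as an interaction in the limma fit. The abemaciclib step (120 minus 36) was larger than the palbociclib step (100 minus 30) by a median of 0.90. The difference was above 0 for 38 of 39 genes and for 46.7% of all genes. By limma 0 of 39 were called, where 0.352% of all genes were. Before adjustment 11 had a limma p under 0.05, as had 1815 of all 14217 genes. Polr1e had the lowest adjusted p, 0.0533, with a difference of 1.62 (SE 0.34). The steps differ in size in mg/kg/day, but the higher dose is the same multiple of the lower one for both compounds. Without abemaciclib 36 array C, 6 genes were called (Polr1b, Polr1e, Rrp1b, Nop56, Heatr1 and Rrs1), and without abemaciclib 120 array B, 2 (Polr1b and Polr1e). An F test over the 6 groups called 37 of 39 genes, all but Rrp9 and Noc3l, where it called 22.6% of all genes. With the actin difference as a covariate it called 19.

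The genes moved together from array to array within groups, as the medians show. Vehicle arrays A, B and C had medians of -0.26, 0.31 and -0.07 against their own mean, and array B was the highest of the 3 in 36 genes. At abemaciclib 120 the medians were 2.11, 1.28 and 1.64, array A being the highest in 30 genes and array B the lowest in 33. Palbociclib 30 gave -0.57, -0.34 and -0.17, and palbociclib 100 gave -0.39, 0.09 and 0.05. The 39 genes are therefore not 39 independent measurements of a group. Abemaciclib 120 array B has another dose in its title and also the highest summed fibroblast markers of its group (11.26 against 7.81 and 9.09, log2). Abemaciclib 36 array B likewise had the highest of its group (11.08). In the remaining groups the array with the highest fibroblast signal was not the lowest in the set, for example ribociclib array A (11.70). The part of dose or tissue content in these medians was not tested.

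**Figure D5:**
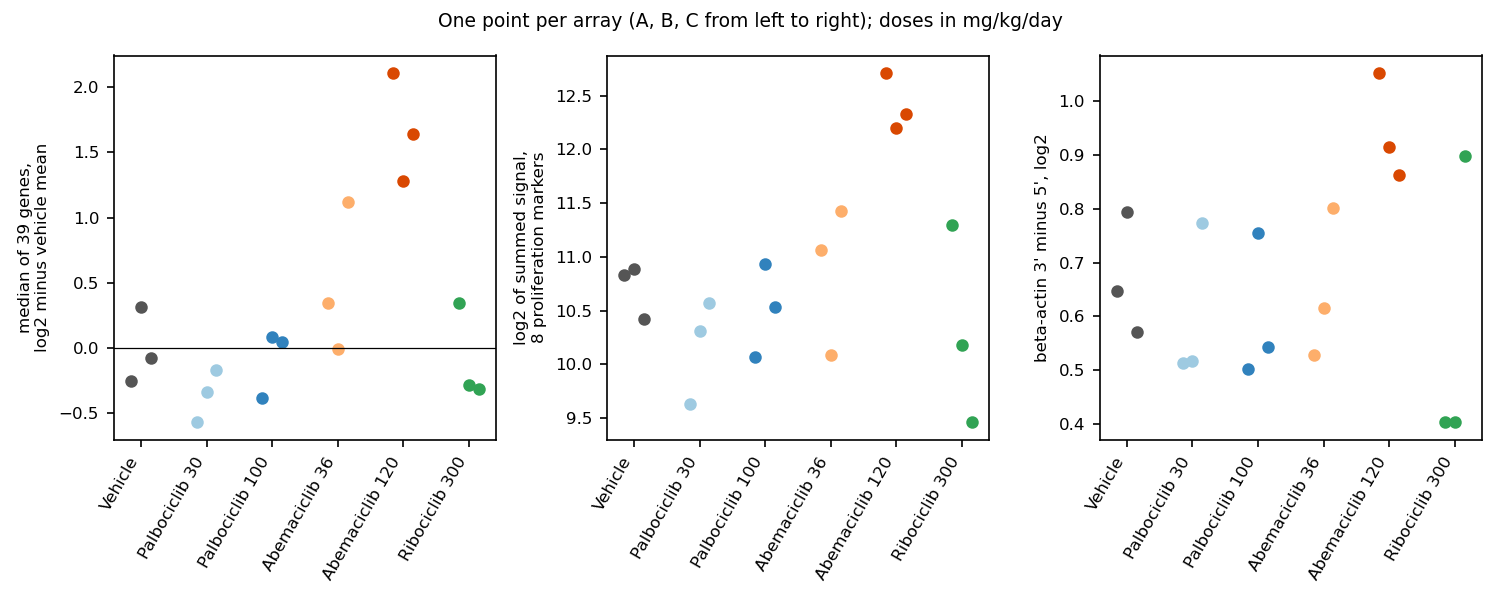
One point per array, by group: the median of the 39 genes as log2 minus the vehicle mean (left), the log2 of the summed signal of 8 proliferation markers (middle) and the log2 difference between 3′ and 5′ beta-actin probe sets (right). At abemaciclib 120 mg/kg/day the left panel spans 1.28 to 2.11 and the middle 12.20 to 12.71, above all other arrays, and the right spans 0.86 to 1.05, a range that ribociclib array C (0.90) shares.

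Markers of dividing crypt cells were higher together with the set at abemaciclib 120. There 6 of 8 proliferation markers rose against vehicle (limma, median 1.79), and none of the 8 fell. Of all genes 9.60% rose and 8.41% fell. At abemaciclib 36, where the 39 genes had a median of 0.53, these 8 markers had one of 0.10. Their summed signal was 10.42 to 10.89 (log2) in vehicle, 12.20 to 12.71 at abemaciclib 120, 10.09 to 11.43 at abemaciclib 36, 9.63 to 10.57 and 10.07 to 10.93 at palbociclib 30 and 100, and 9.46 to 11.30 with ribociclib. Within abemaciclib 36 it was highest on array C (11.43) and lowest on array B (10.09). The median of the 39 genes was also highest on array C (1.12) and lowest on array B (-0.01). All 6 markers of crypt-base stem cells rose as well at abemaciclib 120 (median 1.21). Their summed signal was 8.77 to 9.08 in vehicle, 9.53 to 10.10 at abemaciclib 36 and 10.59 to 11.39 at abemaciclib 120. At abemaciclib 36 these 6 had a median of 0.58 and 1 rose (limma), where 2.08% of all genes were called. At abemaciclib 120, 1 of 8 enterocyte markers fell, and their summed signal was 16.58 to 16.63 in vehicle and 16.11 to 16.49 at that dose. Of 8 markers of T and NK cells 6 fell, from a summed signal of 11.88 to 12.39 to one of 8.95 to 9.74, and 3 of 6 macrophage markers fell. Vehicle means of the 8 proliferation markers lay between 5.48 and 9.93. The part of these shifts in the ribosome biogenesis result was not tested.

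Further genes of the pathway were counted at abemaciclib 120 against vehicle, where 9.60% of all genes rose and 8.41% fell. Of 82 measured further assembly factors (86 listed) 53 rose and 0 fell (limma), with a median of 0.89, for example Rrp15 (2.12, SE 0.26) and Nle1 (1.59, SE 0.21), both for the large subunit. Of 17 further proteins of RNA polymerase I transcription (18 listed) 7 rose and 0 fell, with a median of 0.85. Among them Taf1d, of the promoter selectivity factor, rose by 2.38 (SE 0.34) and the shared subunit Polr1d by 0.96 (SE 0.18). The initiation factors Rrn3 (0.91, limma adjusted p = 0.0507) and Ubtf (0.63, adjusted p = 0.128) were not called. Of 11 measured subunits of the RNA exosome, which trims the precursor, 4 rose and 0 fell, for example Exosc8 (4.01-fold) and Exosc1 (2.46-fold). Of 41 measured cytosolic ribosomal proteins (77 listed) 15 rose and 0 fell, with a median of 0.84. The largest difference was that of Rps13 (1.61, SE 0.32), a dim probe set with a mean of 4.56 in vehicle and 6.17 at abemaciclib 120. Against abemaciclib 36, 27 of the 82 assembly factors and 0 of the 41 ribosomal proteins were higher at 120, where 4.82% of all genes were.

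Of 11 genes of the MYC network 1 rose and 2 fell at abemaciclib 120 against vehicle (limma), where 9.60% of all genes rose and 8.41% fell, and the median was -0.18. Myc itself rose by 2.64 (SE 0.49, 6.25-fold, limma adjusted p = 0.00145), from a mean of 5.20 to 7.84. Mxi1 and Mxd4, which compete with MYC for its partner MAX, fell by 1.55 and 1.40 on the log2 scale. Myc differed from vehicle by 0.53 at abemaciclib 36, -0.26 with ribociclib, and -0.30 and -0.62 at palbociclib 100 and 30, with no call. At abemaciclib 36 Mxi1 fell by 1.12 on the log2 scale (limma adjusted p = 0.0122). With ribociclib Mycl, a relative of Myc named after its value was seen, fell by 1.61 (limma adjusted p = 0.0151). With palbociclib 0 of the 11 were called at either dose. Of 18 measured genes of RNA polymerase III, which makes 5S and transfer RNA, 4 rose, among them Polr3e (1.24), and 2 fell, among them Maf1, its repressor, which fell by 1.42. Of 7 measured genes of nucleolar stress and p53, 0 were called by limma. Cdkn1a differed by 0.32 (limma adjusted p = 0.414) and Cdkn2a by -0.26 (adjusted p = 0.171).

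Ribosomal proteins, further assembly factors and polymerase I proteins had 0 genes called in the other treated groups against vehicle (limma). Of all genes 2.08% were called at abemaciclib 36, 3.73% with ribociclib and 0% at either palbociclib dose. At abemaciclib 36 the medians were 0.25 for the further assembly factors, 0.33 for the ribosomal proteins and 0.21 for polymerase I. With ribociclib they were -0.05, -0.48 and -0.05 in the same order.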

How the data were processed

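The deposited table holds log2 signals of 18 arrays, one column per array, made by the authors with RMA in Affymetrix Expression Console, with the Transcriptome Analysis Console also named, per the submitters' processing notes. Versions and settings are not given in the sources used here. RMA corrects background, gives every array one distribution of values and combines probes into a probe set value. A shift shared by most genes is thereby removed before deposit. Arrays carry no counts, and 3 arrays per group limit the precision.

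From these values, 57 control probe sets of 31099 were left out. Of the rest, 20826 named 1 gene symbol in the platform annotation, 436 several and 9780 none. The brightest probe set stood for each of 14217 genes. One limma fit (limma 3.58.1, R 4.3.3, with an intensity trend) over all 6 groups, with 12 residual degrees of freedom, gave the contrasts, and p-values were adjusted over all genes by the Benjamini-Hochberg method. Groups came from the treatment labels. The fit was tested on simulated data. With 3 arrays a group, exact permutation has a smallest p of 0.1, so it was not used.

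The genes, role groups, pathway and marker lists were chosen with earlier results of these data known. Genes named with full statistics are the 2 per role group with the largest difference between abemaciclib 120 mg/kg/day and vehicle among those called. Polr1a, Noc3l and the others named beside them were chosen after their values were seen. Alternatives were quantile re-normalization, median centring, a filter on dim genes, the mean of probe sets, no intensity trend, the replicate letter as a block, an RNA quality covariate, only the compared groups, and leaving out each array.

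Replicate letters were checked as a pairing: over 45 pairs of arrays with one letter, deviations from the group means correlated between -0.31 and 0.59, and 19 were over 0.1. Of the groups compared, all 3 letter pairs were over 0.1 for abemaciclib 36 and 120 mg/kg/day (0.13, 0.59 and 0.30), so the letters were taken to pair these groups and no others. The main fit did not use this pairing. The replicate block applied the letter to all 6 groups, so no fit paired these groups alone. The labels do not say what a letter marks. Promoter windows were read with Python 3.11.15. Protein sequences were not analysed here.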

Additional observations from a re-analysis of the deposited data

Results flagged for a closer look

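Utp15, a protein of the small subunit processome, is listed because the higher dose lay on opposite sides of the lower dose's mean for 2 compounds, a difference that the limma test did not call. All 3 arrays of abemaciclib 120 mg/kg/day (7.50, 7.11 and 7.63, log2 signal) lay above the mean of the abemaciclib 36 arrays (6.82). All 3 arrays of palbociclib 100 mg/kg/day (5.70, 5.70 and 5.67) lay below the mean of the palbociclib 30 arrays (5.75). The abemaciclib step exceeded the palbociclib step by 0.65 (SE 0.45, 95% interval -0.31 to 1.61), and in the limma interaction fit this was not called (adjusted p = 0.59). The palbociclib step itself was -0.06, smaller than the SD of the palbociclib 30 arrays (0.32). The other Utp15 probe set, nearly as bright (mean 6.28 against 6.31), did not have this pattern. Its mean was 5.88 at palbociclib 30 and 6.07 at palbociclib 100, and 6.53 and 6.87 at abemaciclib 36 and 120. Both compounds thus had the higher mean at the higher dose.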

How the results depend on the processing

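At abemaciclib 120 mg/kg/day against vehicle the count of called genes stayed between 28 and 37 and the median log2 difference between 1.45 and 1.87 in the 14 alternatives run. Of the 35 genes, 25 kept their call in all 14, and Nop14 and Polr1e in all but the filter on dim genes, which left them out. No called gene changed direction. Medians of ribociclib and palbociclib 100 against vehicle crossed 0 (-0.31 to 0.08 and -0.19 to 0.05). The counts of other comparisons moved, and the causes were not tested. For abemaciclib 36 against vehicle (0), quantile re-normalization and median centring each gave 1, and leaving out single arrays gave 0 to 3. For ribociclib against vehicle (0), quantile re-normalization and the filter on dim genes each gave 1, lower, and leaving out single arrays gave 0 to 2. For abemaciclib 120 against 36 (18), the RNA quality covariate gave 5, fitting only the compared groups gave 1, and leaving out single arrays gave 5 to 31. Of the 18 genes 0 kept a call in all 14, and 1, Polr1e, kept it in all but the filter on dim genes, which left it out. For abemaciclib 120 against ribociclib (37) the RNA quality covariate gave 24, and for the F test (37) it gave 19. For the interaction (0), quantile re-normalization and median centring each gave 2, the mean of probe sets gave 1, and leaving out single arrays gave 0 to 6. With the replicate letter as a block (replicate block), the counts were 36 for abemaciclib 120 against vehicle, 17 against abemaciclib 36, 37 against ribociclib, 36 against palbociclib 100 and 36 for the F test, and 0 in the others. Dim genes limit what can be seen: 4 of the 39 lay under the 30th percentile of mean signal, Noc3l among them.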
